A study of Bos taurus with 6 samples.

Results

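Glucose reaches the cell through transporters, is split by the enzymes of glycolysis into pyruvate, and leaves as lactate or enters the mitochondrion, where the pyruvate dehydrogenase complex turns it into acetyl-CoA. The pentose phosphate pathway branches off after the first phosphorylation and makes NADPH, the reducing power for glutathione recycling and lipid synthesis, and ribose for nucleotides. Mammalian embryos use mainly pyruvate and lactate before compaction, and glucose uptake rises as the blastocyst forms. The 40 genes described here cover these steps. They were chosen by symbol as 3 glucose transporters, 8 genes of the hexose phase and 7 of the triose phase of glycolysis, 4 genes of lactate formation and transport, 7 of pyruvate import and the pyruvate dehydrogenase complex, 5 regulators of that complex, and 6 of the pentose phosphate pathway. Each symbol matched 1 Ensembl identifier among the 36075 genes of the table.

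Bovine blastocysts from oocytes matured in vitro for 22 h with melatonin (MT) at 1e-07 mol/L were compared with control blastocysts from oocytes matured without MT, with 3 libraries in each group. The oocytes of both groups came from slaughterhouse ovaries, and both groups went through the same fertilization and embryo culture. The blastocysts were pooled by 3 for each library, and the libraries of a group stem from 3 production runs. The age and breed of the donors and the sex of the embryos were not given in the sources used here, and a pool can mix both sexes. The concentration, the pool size and the runs were stated in the methods of the study, while the sample labels give the group and a replicate number. Values were deposited as TPM, a read abundance scaled to transcript length and to the library's sum. TPM keeps no counts, and the depth that the study gives for each library was not used here, so no counting error is attached to the values.

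The groups stood far apart across the whole table. Between 8854 and 8953 genes were above 0 in the 3 controls and between 14372 and 14408 in the MT-treated libraries. Over the 11953 genes that reached 1 TPM in 3 or more libraries, the ones that were tested, log2(TPM + 1) correlated across genes at 0.991 to 0.999 within a group and at 0.544 to 0.546 between the groups. Genes are not independent replicates. Treatment cannot be told apart from any other difference between the groups in how the libraries were made or processed. Of 13 listed trophectoderm markers 8 were higher and 5 lower with TPM as deposited, of 10 listed inner cell mass markers 4 were higher and 4 lower, and of 6 listed hypoblast markers 3 were higher and 1 lower. KRT8 and KRT18 were abundant in all 6 libraries. CDX2, ELF5, NANOG, LIN28A and PDGFRA were listed at 0 in every control library and above 8 TPM in each MT-treated library, whereas TKDP1 had 16.6 to 17.3 TPM in control and was listed at 0 after MT, and TFAP2A had 31.5 to 38.9 TPM in control and 0.46 to 0.55 TPM after MT. The summed level of these lists ranged from 12062 to 12386 TPM in control and from 11198 to 11595 TPM after MT for the trophectoderm, from 503 to 511 and from 446 to 448 TPM for the inner cell mass, and from 451 to 456 and from 462 to 468 TPM for the hypoblast. Most of the trophectoderm sum came from KRT8 and KRT18. Most of the hypoblast sum came from APOA1, with means of 453 TPM in control and 398 TPM after MT. By contrast, GATA6 had means of 0.33 and 32.0 TPM, and HNF4A of 0 and 10.3 TPM. Near-equal sums thus do not show that single markers were alike. All 10 listed oocyte markers were at 0 in the control libraries, and 8 of them in the MT-treated libraries. Of 11 listed cumulus and granulosa cell markers, 6 were at 0 in all 6 libraries, and the list summed to between 150 and 157 TPM in control and between 121 and 123 TPM after MT, nearly all of it from HSD3B1 and FSHR. Of 9 blood and connective tissue markers, 3 were at 0 throughout, and the list summed to between 61.2 and 62.3 TPM in control and between 169.8 and 195 TPM after MT. The part of these differences in the results for the metabolic genes was not tested. In pooled embryos, fewer cells of a type and less RNA per cell cannot be told apart.

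Of the 40 genes, 35 reached the level required for testing and 34 of these differed between the groups at a threshold of 0.05 for the adjusted p-value (Benjamini-Hochberg over the 11953 genes, limma on log2(TPM + 1)). The same test called 95.7% of all genes tested, so the count for the metabolic genes lay near the background. Of the 35, 19 were higher in MT-treated blastocysts, where 61.6% of all tested genes were, and 15 were lower, where 34.1% were. No overlap between the groups was found for 34 of the 35, against 96.1% of all tested genes. A gene at or near 0 throughout control, PFKL included, entered the test only through its MT-treated level, so it had to differ. Centring each library on its median gave 27 higher and 7 lower (70.4% and 25.4% of all tested genes), and quantile normalization, which forces 1 distribution on all libraries, gave 19 and 15 (46.4% and 44.4%). The median size of the log2 fold change was 0.75 over the 35 genes and 1.98 over all tested genes. Restricted to genes above 0 in all 6 libraries, it was 0.69 over 30 metabolic genes and 0.99 over 6925 genes. Listing at 0 in every control library held for 4 of the 35 (11.4%) and for 33.8% of all tested genes. That share varied with level and was 47.2% where the mean after MT was 5 to 20 TPM and 1.12% where it was 100 TPM or more.

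The summed level of the 40 genes was nearly equal in both groups. It was 8180, 8097 and 8234 TPM in the 3 controls and 8145, 8017 and 8165 TPM after MT, and these ranges overlapped. The MT-treated minus control difference of -61.6 TPM became 574.1 with quantile normalization, and it was -98.3 without control replicate 2, -29.9 without control replicate 3 and -15.7 without MT-treated replicate 2. This was 0.864% to 0.878% of the listed TPM in control and 0.878% to 0.894% in MT-treated libraries. The make-up of the sum differed with TPM as deposited. The regulators of pyruvate dehydrogenase had the lowest ratio of MT-treated to control summed TPM (0.256), followed by the glucose transporters (0.718) and the triose phase (0.868). Ratios above 1 were found for the pyruvate carrier and dehydrogenase genes (1.07), the hexose phase (1.09), the pentose phosphate genes (1.14) and the lactate genes (1.71). The 3 libraries of one group lay apart from those of the other in each of these 7 sums, as they did for 96.1% of all tested genes.

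**Figure D1:**
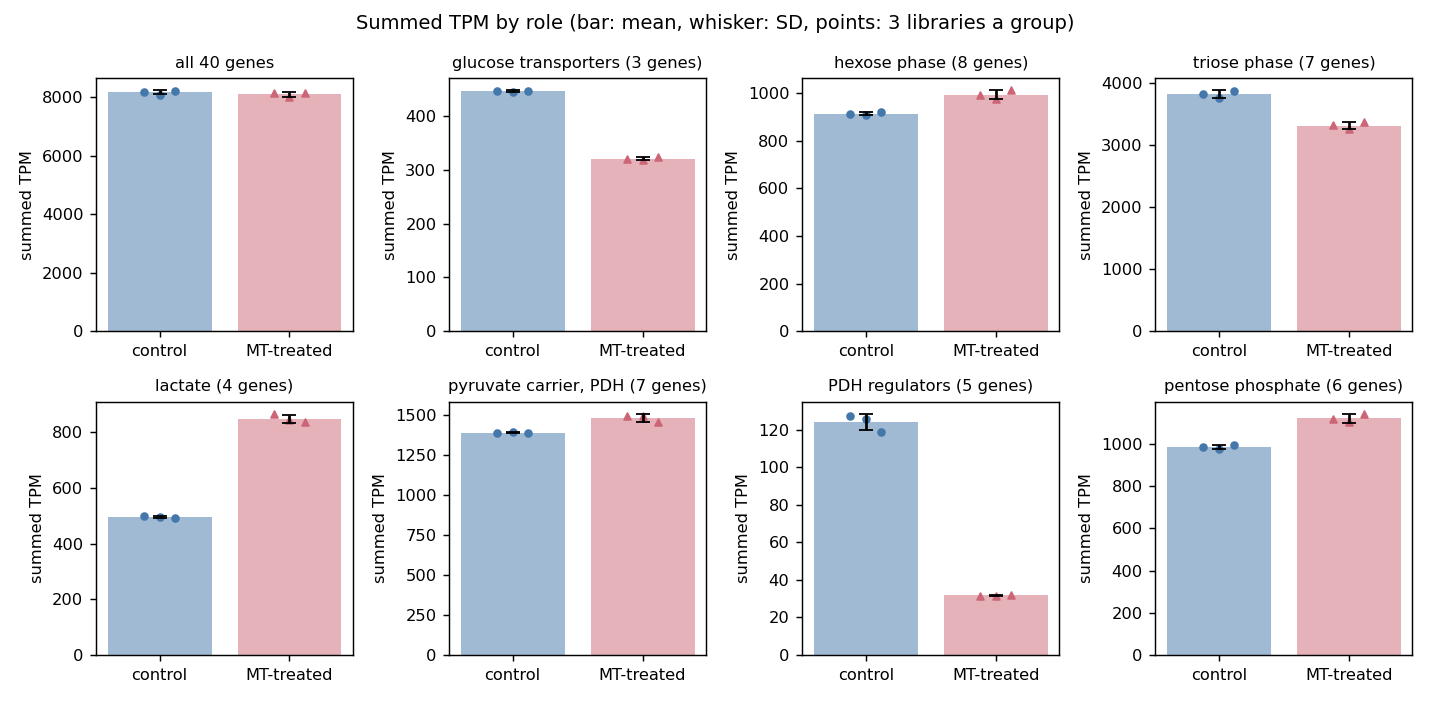
Summed TPM of the 40 genes and of each of 7 roles; bars are the mean of 3 libraries, whiskers the SD and points the libraries. The totals averaged 8171 and 8109 TPM, whereas the pyruvate dehydrogenase regulators fell from 124 to 31.7 TPM and the lactate genes rose from 496 to 848 TPM.

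GAPDH was the most abundant of the genes in both groups, with 25.5% of the summed TPM in control and 22.2% in MT-treated blastocysts, and ALDOA was second in both. In control the next were PKM, MPC1 and TALDO1. In MT-treated blastocysts they were PGAM1, MPC1 and LDHB. PKM moved from rank 3 to rank 6, LDHB from rank 11 to rank 5 and PDHB from rank 13 to rank 7. The largest loss of rank was that of PDK1, from 21 to 33. The 5 most abundant genes held 60.7% of the sum in control and 50.8% in MT-treated blastocysts. GAPDH and other abundant glycolytic genes have processed pseudogenes in mammalian genomes, and the treatment of reads that map to several places is not given in the sources used here, so their levels are uncertain.

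**Figure D2:**
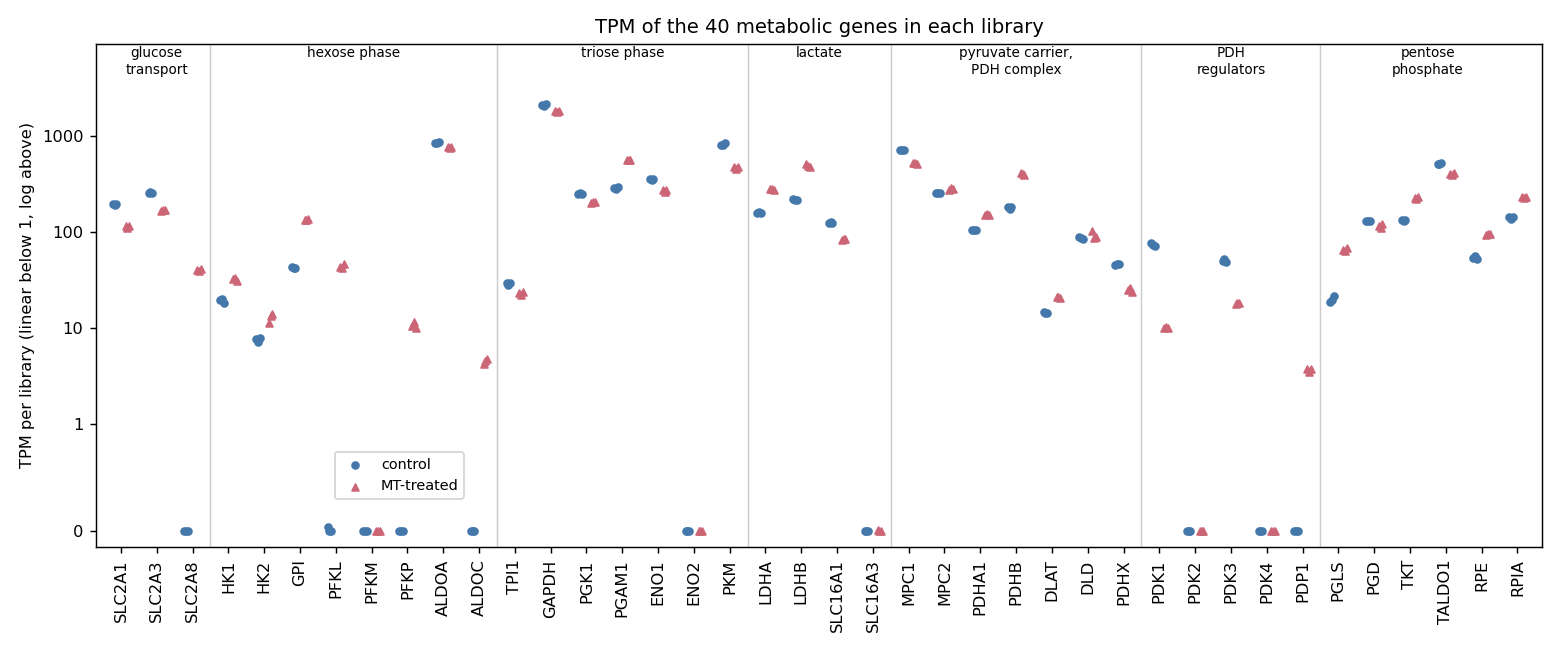
TPM of each of the 40 genes in the 3 control (circles) and 3 MT-treated (triangles) libraries, grouped by role on an axis that is linear below 1 TPM and logarithmic above. PFKP, SLC2A8, ALDOC and PDP1 lie at 0 in each control library, and PFKM, ENO2, PDK2 and PDK4 in all 6 libraries.

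The glucose transporters SLC2A1 and SLC2A3 were lower in MT-treated embryos, by less after median centring (log2 fold changes of -0.27 and -0.12). SLC2A1 (GLUT1, ENSBTAG00000009617), the widespread glucose transporter, had 192, 188 and 193 TPM in the 3 controls and 115, 110.2 and 114 TPM after MT (log2 fold change -0.75, standard error 0.02, adjusted p = 1.40e-07 by limma). SLC2A3 (GLUT3), a transporter of high affinity, had 256, 256 and 254 TPM in control and 166, 169 and 169 TPM after MT (log2 fold change -0.60, standard error 0.02). Neither gene's groups overlapped, and SLC2A3 stood above SLC2A1 in every library. SLC2A8 (GLUT8), an intracellular transporter that has been described in bovine and mouse blastocysts, was at 0 in every control and had 39.99, 38.7 and 40.8 TPM after MT. SLC2A1 made up 42.8% ± 0.407 of the TPM of the 3 transporters in control and 35.2% ± 0.577 in MT-treated blastocysts (SD, n = 3 each), and SLC2A8 made up 12.4% ± 0.226 of it in the latter.

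In the hexose phase, the genes of phosphofructokinase, which makes the committed step of glycolysis, were at or near 0 in control blastocysts. PFKL (ENSBTAG00000010658), the liver-type subunit, had 0.03, 0 and 0 TPM in the 3 controls and 42.8, 42.3 and 46.4 TPM after MT. PFKP, the platelet-type subunit, was at 0 in every control and had 10.5, 11.4 and 9.98 TPM after MT. PFKM, the muscle-type subunit, was listed at 0 in all 6 libraries. Their sum was thus at most 0.03 TPM in any control library, while aldolase, the next enzyme, had at least 837 TPM there. A step that glycolysis cannot do without was listed at or near 0 in control, so a value of 0 in these libraries is given as a listing and not as absence of the transcript. The hexokinases, which phosphorylate glucose on entry, were higher in MT-treated blastocysts with TPM as deposited, HK2 with the opposite sign after quantile normalization. HK1 had 19.5, 19.9 and 18.3 TPM in control and 32.3, 32.8 and 30.7 TPM after MT (log2 fold change 0.71, standard error 0.04, adjusted p = 6.89e-06 by limma). HK2, the isozyme linked to high glycolytic rates, had 7.57, 7.05 and 7.91 TPM in control and 11.2, 13.3 and 13.9 TPM after MT (log2 fold change 0.69, standard error 0.09). Its log2 fold change was -0.97 after quantile normalization. HK1 made up 71.9% ± 2.03 of the hexokinase TPM in control and 71.5% ± 2.76 in MT-treated blastocysts (SD, n = 3 each), a difference of -0.404 percentage points within overlapping groups (exact permutation test, two-sided, p = 0.8, n = 3 each, where 3 against 3 cannot go below 0.1). The summed TPM of SLC2A1 and SLC2A3 per summed TPM of HK1 and HK2 went from 16.7 ± 0.310 in control to 6.29 ± 0.195 after MT (SD, n = 3 each). GPI (ENSBTAG00000006396), which turns glucose 6-phosphate into fructose 6-phosphate, had 42.6, 42.4 and 42.4 TPM in control and 131, 133 and 135 TPM after MT. It was 3.14 times as high after MT (log2 fold change 1.63, standard error 0.02, adjusted p = 2.65e-09 by limma).

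ALDOA, the main aldolase, had 844, 837 and 853 TPM in control and 761, 739 and 770.3 TPM after MT. The groups did not overlap, and the log2 fold change was -0.16, or 0.32 with median centring. ALDOC was at 0 in every control and had 4.23, 4.50 and 4.73 TPM after MT, so that ALDOA made up 99.4% of the TPM of both there. ENO2, the neuronal enolase, was listed at 0 in all 6 libraries.

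In the triose phase, 3-carbon sugars are oxidized and ATP is made. Of its 6 tested genes, 5 were lower with TPM as deposited, of which only PKM remained lower after median centring, beside 34.1% and 25.4% of all tested genes. TPI1, GAPDH, PGK1 and ENO1 had log2 fold changes of -0.32, -0.21, -0.31 and -0.39, and PKM, the pyruvate kinase of embryonic and proliferating cells, had one of -0.81 (standard error 0.03, adjusted p = 4.84e-07 by limma). Median centring, taken over the 5988 genes that reached 1 TPM in all 6 libraries, removes a shift of -0.48 between the groups from every log2 fold change. With it the log2 fold changes of TPI1, GAPDH, PGK1, ENO1 and ALDOA became positive (0.16, 0.26, 0.17, 0.09 and 0.32) and that of PKM stayed negative (-0.33). PKM had 805, 797 and 831 TPM in control and 468, 446 and 477 TPM after MT, with no overlap. TPI1 was the least abundant tested gene of this phase, with 27.7 to 29.6 TPM in control and 22.2 to 23.5 TPM after MT. GAPDH, which acts on the product of TPI1, had at least 1764 TPM in each library. PGAM1, a phosphoglycerate mutase, had 283, 282 and 294 TPM in control and 553, 553 and 563 TPM after MT (log2 fold change 0.96, standard error 0.02, adjusted p = 3.44e-08 by limma). Its neighbours in the pathway, PGK1 and ENO1, were lower with TPM as deposited. The TPM of PGAM1 per TPM of PGK1 went from 1.14 ± 0.0408 in control to 2.75 ± 0.0234 in MT-treated blastocysts, and per TPM of ENO1 it was 0.812 ± 0.0153 and 2.07 ± 0.0422 (SD, n = 3 each). A ratio of genes within a library is not moved by a factor common to that library. All 9 such ratios given here were chosen after the values were seen, and the groups did not overlap for any of the 9. Of all tested genes, 96.1% did not overlap either. An exact permutation test (two-sided) gave p = 0.1 for each ratio, the lowest value that 3 against 3 can reach. As the ratios were picked by their values, no conclusion is drawn from these p-values.

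**Figure D3:**
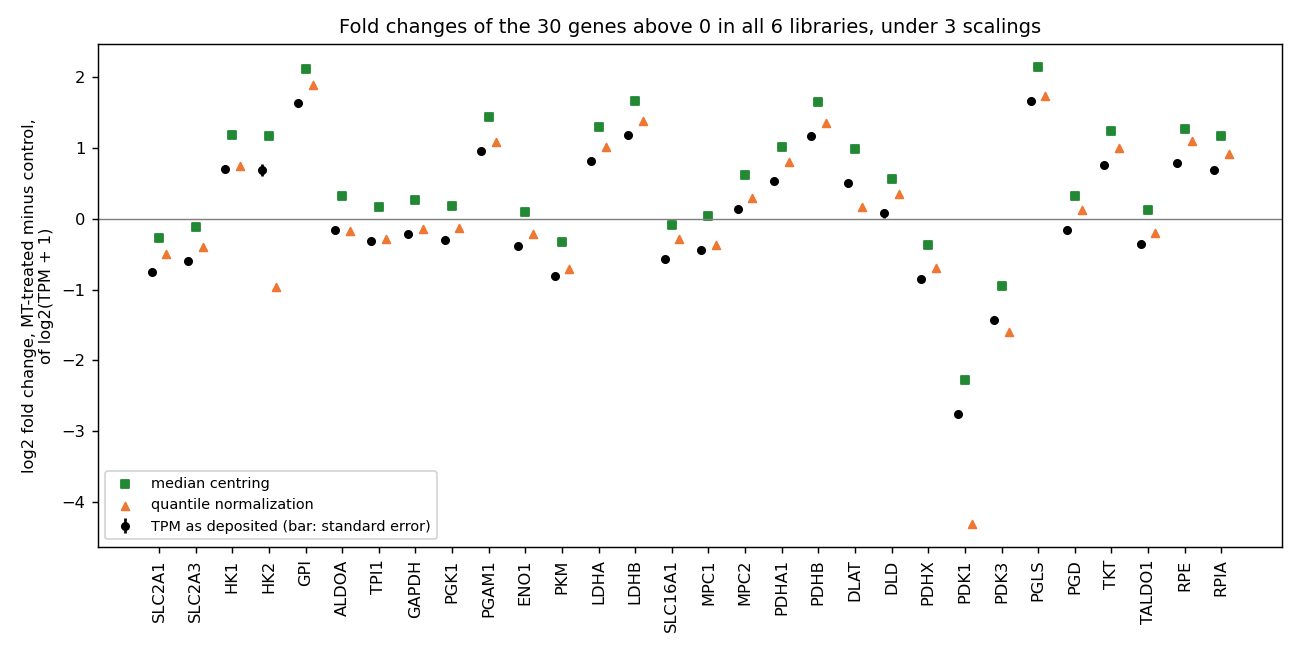
Log2 fold change of log2(TPM + 1), MT-treated minus control, for the 30 genes above 0 in all 6 libraries, with TPM as deposited (circles, standard error), after median centring (squares) and after quantile normalization (triangles). GPI, PGLS, LDHB and PDHB lie above 1 and PDK1 at or below -2.28 under all 3 scalings, while ALDOA, GAPDH, TPI1, PGK1, ENO1, MPC1, PGD and TALDO1 cross 0 with centring.

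Both lactate dehydrogenase genes rose, while the lactate carrier SLC16A1 fell. LDHA, whose subunit favours lactate formation, had 158, 159 and 158 TPM in control and 281, 277 and 275 TPM after MT (log2 fold change 0.81, standard error 0.01, adjusted p = 1.50e-08 by limma). LDHB, whose subunit favours the oxidation of lactate, had 217, 213 and 212 TPM in control and 502, 482 and 477 TPM after MT (log2 fold change 1.18, standard error 0.02, adjusted p = 2.21e-08 by limma). Both were higher in each MT-treated library than in any control library, and LDHB rose more. LDHA made up 42.5% ± 0.405 of the lactate dehydrogenase TPM in control and 36.3% ± 0.388 in MT-treated blastocysts (SD, n = 3 each), with no overlap. SLC16A1 (MCT1), a carrier of lactate and pyruvate, had 124, 125 and 123 TPM in control and 81.3, 84.9 and 83.4 TPM after MT (log2 fold change -0.57, adjusted p = 6.68e-07 by limma, and -0.0905 with median centring). SLC16A7 (MCT2), a related carrier from the list of further pathway genes that was singled out after its values were seen, had 0.02, 0.11 and 0 TPM in control and 22.1, 22.5 and 22.3 TPM after MT, the level through which it entered the test. SLC16A3 (MCT4), the carrier of strongly glycolytic cells, was listed at 0 in 5 libraries and at 0.01 TPM in MT-treated replicate 1. The TPM of LDHA per TPM of PKM went from 0.195 ± 0.00458 in control to 0.5997 ± 0.0225 in MT-treated blastocysts (SD, n = 3 each).

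Pyruvate enters the mitochondrion through a heterodimer of MPC1 and MPC2. MPC1 had 708, 717 and 705 TPM in control and 524, 524 and 512 TPM after MT. MPC2 had 250.3, 256 and 256 TPM in control and 275, 284 and 279.8 TPM after MT. The partners thus moved in opposite directions with TPM as deposited, MPC1 down (log2 fold change -0.45, adjusted p = 2.00e-07 by limma) and MPC2 up (0.14, adjusted p = 0.000409 by limma), while after median centring MPC1 was no longer called (0.03, adjusted p = 0.134 by limma). MPC1 made up 73.7% ± 0.255 of their TPM in control and 65.0% ± 0.486 in MT-treated blastocysts (SD, n = 3 each), and the groups did not overlap.

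Of the pyruvate dehydrogenase complex, both subunits of the first enzyme rose, and the protein that tethers the third enzyme fell. PDHA1, the alpha subunit that carries the sites phosphorylated by the kinases, had 104, 104 and 104 TPM in control and 149, 154 and 148 TPM after MT (log2 fold change 0.53, standard error 0.02, adjusted p = 5.97e-07 by limma). PDHB, the beta subunit, had 179, 173 and 179 TPM in control and 404, 400.5 and 385 TPM after MT (log2 fold change 1.16, standard error 0.03, adjusted p = 3.51e-08 by limma). The subunits are equal in number in the enzyme, and PDHA1 held 37.0% ± 0.501 of their TPM in control and 27.5% ± 0.520 in MT-treated blastocysts (SD, n = 3 each). DLAT, the acetyltransferase core of the complex, had 14.7, 14.2 and 14.4 TPM in control and 21.1, 20.8 and 20.5 TPM after MT (log2 fold change 0.50, adjusted p = 4.53e-06 by limma). PDHX, which binds the third enzyme to the core, had 44.7, 46.5 and 45.7 TPM in control and 24.7, 25.8 and 23.8 TPM after MT (log2 fold change -0.86, adjusted p = 9.82e-07 by limma, and -0.38 with median centring). The TPM of PDHX per TPM of DLAT went from 3.16 ± 0.123 in control to 1.19 ± 0.0453 in MT-treated blastocysts (SD, n = 3 each). DLD, the third enzyme, which serves other dehydrogenase complexes as well, was the gene that was tested and not called. It had 88.5, 87.0 and 84.7 TPM in control and 101, 86.8 and 87.2 TPM after MT (log2 fold change 0.08, standard error 0.06, adjusted p = 0.285 by limma), so that MT-treated replicate 1 stood above the other libraries and the groups overlapped. After median centring and after quantile normalization DLD was called higher (0.55 and 0.35).

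**Figure D4:**
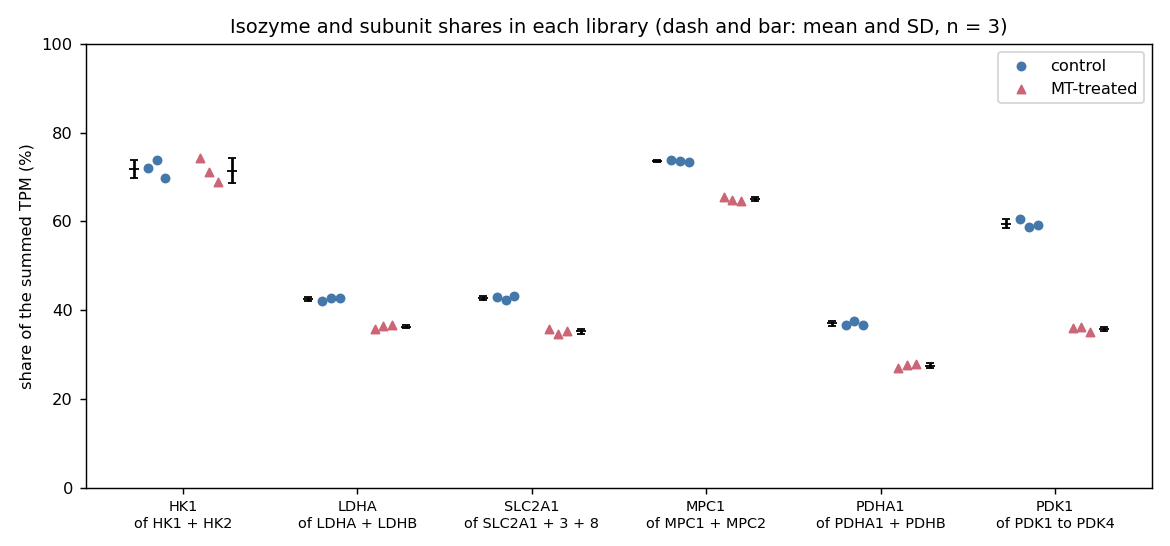
Share of 1 isozyme or subunit in the summed TPM of its family, in percent, for 6 families in each control (circles) and MT-treated (triangles) library, with the mean and SD of each group. The hexokinase share overlaps between the groups near 72%, and the shares of LDHA, SLC2A1, MPC1, PDHA1 and PDK1 lie lower in every MT-treated library than in any control library.

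The largest falls were in the pyruvate dehydrogenase kinases, which phosphorylate and switch off the complex. PDK1 (ENSBTAG00000016836) had 77.1, 73.6 and 70.3 TPM in the 3 controls and 10.1, 10.2 and 9.87 TPM after MT, 7.34 times lower by the group means (log2 fold change -2.76, standard error 0.04, adjusted p = 5.22e-09 by limma). PDK3 had 50.1, 51.8 and 48.6 TPM in control and 17.86, 17.98 and 18.21 TPM after MT, 2.79 times lower (log2 fold change -1.43, standard error 0.03, adjusted p = 3.31e-08 by limma). In neither gene did the groups come near each other, and both falls remained called after median centring (-2.28 and -0.95) and quantile normalization (-4.30 and -1.60). PDK2 and PDK4 were listed at 0 in all 6 libraries. PDK1 was thus the main kinase transcript in control, with 59.5% ± 1.03 of the kinase TPM, and PDK3 in MT-treated blastocysts, where PDK1 held 35.8% ± 0.542 (SD, n = 3 each). The summed TPM of the kinases per summed TPM of PDHA1 and PDHB was 0.450, 0.453 and 0.420 in the 3 controls and 0.0505, 0.0508 and 0.0526 in the MT-treated libraries. The summed TPM of LDHA and LDHB per summed TPM of PDHA1 and PDHB moved far less, from 1.33 ± 0.0177 to 1.40 ± 0.0261 (SD, n = 3 each). PDP1, the catalytic subunit of a phosphatase that switches the complex back on, was at 0 in every control and had 3.71, 3.47 and 3.71 TPM after MT. It was no longer higher after quantile normalization (log2 fold change -0.01, adjusted p = 0.732 by limma).

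Of the 6 pentose phosphate genes, 4 rose and 2, PGD and TALDO1, fell with TPM as deposited and turned positive with median centring. Of all tested genes 61.6% rose and 34.1% fell with TPM as deposited. PGLS (ENSBTAG00000016783), the lactonase of the oxidative branch, had 18.8, 19.4 and 21.6 TPM in control and 64.8, 62.7 and 67.6 TPM after MT, a 3.27-fold difference (log2 fold change 1.66, standard error 0.06, adjusted p = 3.40e-07 by limma). PGD, which follows it and yields NADPH, had 129.3, 130.01 and 129.4 TPM in control and 116, 110.3 and 121 TPM after MT (log2 fold change -0.17, adjusted p = 0.00364 by limma), and was higher after median centring (0.31) and quantile normalization (0.12). The TPM of PGLS per TPM of PGD went from 0.154 ± 0.0114 in control to 0.563 ± 0.00471 in MT-treated blastocysts (SD, n = 3 each). Of the non-oxidative branch, which rearranges sugars back to glycolysis, RPE rose from 53.8 ± 1.55 to 93.7 ± 2.15 TPM and RPIA, which makes ribose 5-phosphate, from 140.2 ± 3.90 to 227 ± 3.52 TPM (SD, n = 3 each). TKT, the transketolase, rose from 131 ± 1.70 to 224 ± 3.30 TPM (SD, n = 3 each). TALDO1, the transaldolase, went from 509.8 ± 3.33 down to 396 ± 7.16 TPM, and its log2 fold change turned from -0.36 to 0.12 with median centring. TKT per TALDO1 went from 0.258 ± 0.00216 to 0.564 ± 0.00278, and the groups did not overlap for any of these genes.

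Glucose 6-phosphate stands at the branch between glycolysis, the pentose phosphate pathway and glucose release, and further genes of these routes were read from a list of 63 symbols, of which 59 were in the table and 36 were tested. Of these, 24 were higher and 11 lower, beside 61.6% and 34.1% of all tested genes, and 17 were listed at 0 in every control library and 2 in every MT-treated library. Of all tested genes, 33.8% were at 0 throughout control and 3.01% throughout the MT-treated group. FBP1, the fructose bisphosphatase of gluconeogenesis, was among the largest falls. It had 58.0, 56.2 and 59.7 TPM in control and was listed at 0 in every MT-treated library. H6PD, which opens an oxidative branch within the endoplasmic reticulum, had 13.8, 13.6 and 13.6 TPM in control and 14.6, 13.6 and 13.95 TPM after MT and was not called (log2 fold change 0.03, adjusted p = 0.373 by limma). It was called higher after median centring (0.51, adjusted p = 1.19e-05 by limma) and lower after quantile normalization (-1.06, adjusted p = 3.76e-05 by limma).

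The largest rises on that list, of which LIPT2 and SLC2A13 are given, belonged to genes at 0 throughout control. LIPT2, which acts in the synthesis of the lipoyl group that the acetyltransferase of pyruvate dehydrogenase carries, had 38.6, 38.9 and 44.1 TPM after MT. SLC2A13, a transporter of myo-inositol, had 29.8, 33.4 and 31.8 TPM. Others at 0 in control and at a mean of at least 10 TPM in MT-treated blastocysts were G6PC3, TKTL1, PGM2, GAPDHS, SLC2A12, SHPK, PCK2, EMB and PRPS2, with 12.6 to 30.4 TPM in the single MT-treated libraries. A further 3 genes were singled out after their values were seen. HKDC1, a hexokinase paralogue, rose from 1.46 ± 0.0917 to 30.5 ± 3.75 TPM and BSG (basigin), the chaperone that brings MCT1 to the membrane, from 961 ± 26.4 to 1644 ± 25.3 TPM, whereas GPD2, the mitochondrial glycerol phosphate dehydrogenase, fell from 169 ± 6.39 to 20.7 ± 0.406 TPM (SD, n = 3 each).

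**Figure D5:**
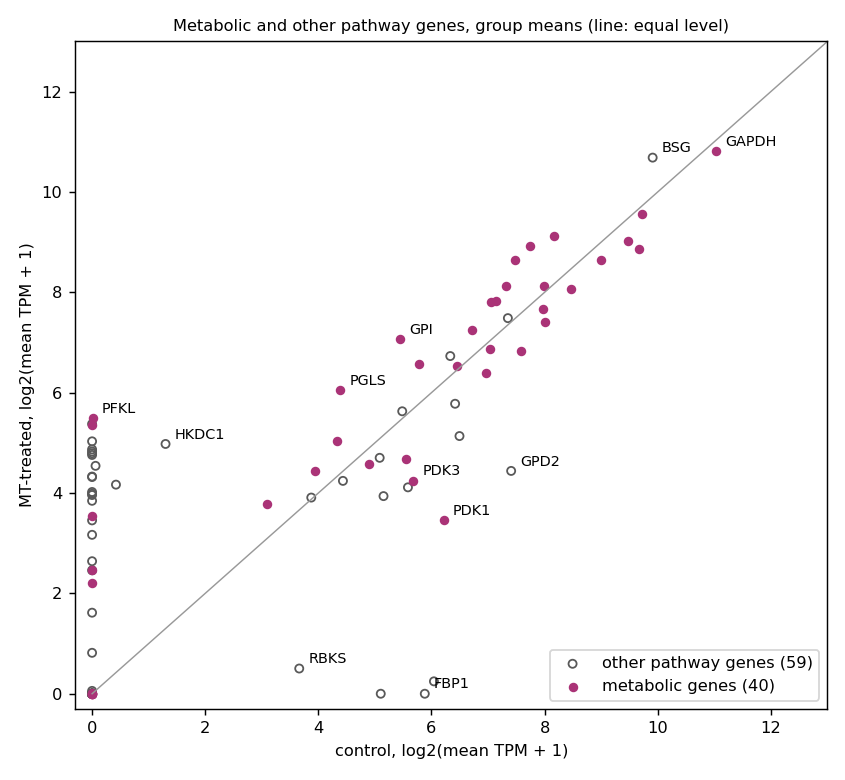
Group means of TPM as log2(mean TPM + 1) in control (horizontal) and MT-treated (vertical) blastocysts for the 40 genes (filled) and 59 other genes of the same pathways (open), with the line of equal level. FBP1 lies at 0 in MT-treated blastocysts, and a column of genes including PFKL lies at or near 0 in control.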

How the data were processed

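RNA from pools of bovine blastocysts was sequenced in 6 libraries. Per the labels and the methods of the study, reads were checked with FastQC 0.11.9, aligned with STAR 2.7.9a and counted with featureCounts of Subread 1.6.3. The labels name the genome ARS-UCD1.2 and a TruSeq kit, while the study's methods name ARS-UCD1.3 and Smart-seq2. The authors deposited TPM rounded to 2 decimals, and how counts became TPM is not given in the sources used here. The listed TPM summed to between 912686 and 937698 a library.

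Columns were matched to samples by the labels. TPM were transformed to log2(TPM + 1), and every gene that reached 1 TPM in 3 or more libraries entered 1 linear model per gene (limma 3.58.1 in R 4.3.3; lmFit, then eBayes with trend), without a block. Adjusted p-values are Benjamini-Hochberg values over all tested genes, with a threshold of 0.05. For isozyme and subunit shares and for ratios within a library, exact permutation tests (two-sided) were run with scipy 1.17.1 in Python 3.11.15. These p-values cover the spread between these libraries. Over the 30 metabolic genes above 0 in all 6 libraries, the median SD was 1.64% of the mean in control and 2.12% after MT. Whether so small a spread includes all variation between embryos or production runs was not tested. The fit was also run on simulated data in which few genes differed between the groups. In these libraries 95.7% of all tested genes were called, a setting that the simulation does not cover.

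The genes, lists and tests were chosen with earlier results of these data known, so no p-value for a list or its sum is given. All 40 genes were eligible to be named. Of the further pathway genes, the 3 largest rises and falls and those listed at 0 throughout 1 group with a mean of at least 10 TPM in the other were named, apart from a few that are not reported here, and the exceptions are stated. Tried as alternatives were median centring, quantile normalization, a pseudocount of 0.1, the filter left out or raised to 5 TPM or to genes above 0 in all libraries, eBayes without trend, a replicate block and each library left out. No genome or sequence table was used here, so no sequence or position is given.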

Additional observations from a re-analysis of the deposited data

How the results depend on the processing

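The number of metabolic genes called lower fell from 15 to 7 with median centring, and the number of further pathway genes called higher fell from 24 to 6 when only genes above 0 in all 6 libraries were kept, since that leaves out the genes at 0 in control. The median log2 fold change of the metabolic genes was 0.50, and 0.32 without a filter (36 genes), 0.14 with a minimum TPM of 5 (33 genes), -0.0413 over the 30 genes above 0 in all libraries, 0.12 with quantile normalization and 0.98 with median centring. The difference of -61.6 in their summed TPM became 574.1 with quantile normalization. With median centring the log2 fold changes of ALDOA (0.32), TPI1 (0.16), GAPDH (0.26), PGK1 (0.17), ENO1 (0.0892), MPC1 (0.0308), PGD (0.31), TALDO1 (0.12), PGM1 (0.10) and PC (0.29) turned positive. With quantile normalization those of HK2 (-0.97), PDP1 (-0.00655), BPGM (-0.31) and H6PD (-1.06) turned negative and that of PGD (0.12) positive. The cause of these changes under either scaling was not tested. The pseudocount of 0.1, the fit without the trend and each library left out kept the direction and the call of all 35 metabolic genes tested, with 19 higher and 15 lower genes each time. Of the 14 isozyme and subunit shares tested, 9 did not overlap between the groups (smallest adjusted p = 0.156, exact permutation tests), 10 with quantile normalization and at least 9 without any single library. The shares of PDK2, PDK4 and ENO1 were fixed at 0% or 100% in all 6 libraries, so they could not differ. Those of PDK1 and PDK3 are complements of each other and not separate results. The ALDOA and SLC2A8 shares differed through genes at 0 in every control library. Of all tested genes, 96.1% did not overlap.

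No source used here ties a replicate number to a production run. The methods of the study state that the treatments were run at the same time within each run, so the groups may share runs. Deviations from the group means correlated between -0.0115 and 0.0588 for libraries with the same number. For libraries with different numbers they correlated between -0.0458 and 0.0499, so libraries were treated as unpaired. With the replicate block 19 metabolic genes were higher and 15 lower, and 24 further pathway genes were higher and 11 lower, so no count of calls changed. TPM does not show how many reads stand behind a value, which limits the reading of low values and of genes listed at 0.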
